A study of Homo sapiens with 24 samples.

Results

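The clustered histone genes are the replication-dependent histone genes, which lie in groups on chromosomes 6, 1 and 12 and carry older symbols that begin with HIST1H to HIST4H. Of 18889 genes in the table of normalized read counts, 49 had such a symbol and 48 had a value above 0 in at least 1 sample, and these 48 are described here. The gene left out, HIST2H2BB, was at 0 in every sample. The 48 comprised 5 H1, 10 H2A, 17 H2B, 7 H3 and 9 H4 genes, with 33 in the HIST1 cluster, 12 in HIST2, 2 in HIST3 and 1 in HIST4. Of the 44 that could be matched to the annotation, 41 were protein coding and 3 were pseudogenes.

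RNA was sequenced from HCC1500, MDA-MB-175 and ZR-75-30, established breast cancer lines that are positive for the estrogen receptor. Every line was kept for 48 hours in glucose at 5 mM (low) or at 25 mM (high), with 4 samples per group and 24 samples in all, and the comparison asked how the lines respond to high glucose. All groups shared a serum-free medium and a period of conditioning in low glucose before the switch. The labels give no age of the cultures, and nothing states that the 4 samples of a group came from separate cultures, so the p-values measure the spread between these samples, which may be technical.

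Histone proteins package DNA. A nucleosome winds DNA around a core of H2A, H2B, H3 and H4, and H1, the linker histone, binds where DNA enters and leaves it. Most clustered histone genes are transcribed while DNA is copied in S phase, in a nuclear body organized by NPAT, and their messages end in a short stem-loop bound by SLBP in place of a poly(A) tail. Some of these genes can also give longer, polyadenylated messages. Whether the cell-line libraries were made by poly(A) selection is not given in the sources used here, and the values cannot tell the 2 message forms apart.

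The stem-loop was found in the annotated transcripts of 43 of the 44 matched genes, in 7 versions. They are shown as DNA in the direction of the message because they define the family, with the paired bases in capitals and the loop in lower case.
Stem-loop of 23 genes, among them HIST1H1C, HIST1H2AC, HIST2H2BE and HIST2H3A: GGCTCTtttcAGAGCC
Stem-loop of 6 genes, among them HIST1H2BK, HIST1H2BD and HIST1H2BC: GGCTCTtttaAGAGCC
Stem-loop of 5 H4 genes, among them HIST1H4H and HIST4H4: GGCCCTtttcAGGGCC
Stem-loop of 4 H4 genes, among them HIST2H4A and HIST2H4B: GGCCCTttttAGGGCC
Stem-loop of 3 genes, among them HIST1H2AG: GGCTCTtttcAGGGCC
Stem-loop of HIST1H3E: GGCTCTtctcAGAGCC
Stem-loop of HIST2H2AC: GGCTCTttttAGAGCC
Both H4 versions were found in H4 genes only among the members matched, and the version of HIST1H2AG was shared with the pseudogenes HIST2H2BC and HIST2H2BD. In 39 of the 43 the shortest annotated transcript ended 4 to 9 bases past the stem-loop, whereas 12 genes had a transcript that ended 100 or more bases past it. HIST2H2BE had no shorter form in the annotation and ran 1729 bases past the stem-loop. The longest annotated tail was 1128 bases for HIST1H2AC, 1655 bases for HIST1H4H and 1316 bases for HIST2H4B. Of the 12 genes with the highest mean value, 5 had such a long form (HIST1H2AC among them also had a transcript without the stem-loop), 2 (HIST1H2BC and HIST1H2BD) had a transcript without the stem-loop and no long form, 4 (HIST1H1C, HIST1H2AG, HIST1H2BK and HIST2H2AA4) ended at the stem-loop in every annotated transcript, and HIST1H2BG was not matched.

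The promoters of the 6 genes whose glucose response differed most clearly between the lines are shown next, as the 150 bases before the RefSeq transcription start (build GRCh38.p14; for HIST1H2BK and HIST1H2BD the first of 2 listed starts). Capitals mark exact matches, on either strand, to CCAAT, the TATA box TATAAA, the octamer ATTTGCAT and the H1 box AAACACA. No marked match overlapped another.
HIST1H1C, chr6:26056471-26056620, minus strand: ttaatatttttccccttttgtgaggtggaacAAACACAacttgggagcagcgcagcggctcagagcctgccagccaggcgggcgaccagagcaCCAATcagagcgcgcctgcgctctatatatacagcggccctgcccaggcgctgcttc
HIST1H2BK, chr6:27146859-27147008, minus strand: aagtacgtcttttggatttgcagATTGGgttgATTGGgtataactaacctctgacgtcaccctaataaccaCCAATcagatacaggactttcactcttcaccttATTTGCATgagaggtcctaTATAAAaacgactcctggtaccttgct
HIST1H2BD, chr6:26157971-26158120, plus strand: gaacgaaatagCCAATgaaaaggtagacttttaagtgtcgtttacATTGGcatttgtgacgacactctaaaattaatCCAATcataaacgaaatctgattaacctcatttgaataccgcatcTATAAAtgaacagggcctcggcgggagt
HIST1H2AC, chr6:26124022-26124171, plus strand: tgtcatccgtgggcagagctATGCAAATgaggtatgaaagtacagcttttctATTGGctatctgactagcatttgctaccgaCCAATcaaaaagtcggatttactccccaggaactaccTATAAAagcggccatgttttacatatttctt
HIST2H2BE, chr1:149886683-149886832, minus strand: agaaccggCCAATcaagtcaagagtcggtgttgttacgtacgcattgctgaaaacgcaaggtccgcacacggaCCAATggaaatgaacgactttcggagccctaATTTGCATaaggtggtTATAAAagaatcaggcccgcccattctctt
HIST1H4H, chr6:26285535-26285684, minus strand: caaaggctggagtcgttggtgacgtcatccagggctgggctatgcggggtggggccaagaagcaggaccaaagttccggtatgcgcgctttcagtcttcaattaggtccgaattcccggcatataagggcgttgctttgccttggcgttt
The H1 box stood 119 bases before the start of HIST1H1C, the octamer 46 bases before those of HIST1H2BK and HIST2H2BE, and TATAAA 27 to 31 bases before those of the 4 H2A and H2B genes shown. None of the 4 letter strings was in the window of HIST1H4H. In windows of 300 bases (250 before the start and 50 after), CCAAT was in 31 of the 39 matched histone genes (79.5%) and in 39.7% of 27305 genes. TATAAA was in 64.1% of the histone genes and 14% of all genes. The octamer was in 35.9% against 2.19%, in 6 of 9 H2A and 7 of 11 H2B genes and in no H1 or H4 gene. The H1 box was in all 4 matched H1 genes, against 6.94% of all genes. A match is a run of letters only, and CCAAT was in 1 of 9 H4 genes.

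The libraries held 9140024 to 17998819 reads assigned to genes, recovered from the whole-number steps of the values, and 1 read was worth 0.318 to 0.763 normalized counts. Over all samples a member had 33 to 33470 reads, with a median of 414.5. The HCC1500 libraries were deeper in low glucose (13190982 to 17998819 reads) than in high glucose (9423472 to 12140912 reads), without overlap, and the part of this gap in the HCC1500 results was not tested. Luminal markers were present in every sample, with ESR1 at 255 to 3962, KRT8 at 5274 to 24675 and EPCAM at 1156 to 2247 normalized counts. The smooth muscle marker ACTA2 lay at 4.43 to 45.4 and COL1A1, a fibroblast collagen, at 67.1 to 256. The highest COL1A1 value, in HCC1500, was at the level of the lowest ESR1 value, in MDA-MB-175. Mean ACTA2 was 6.57 in low and 26.7 in high glucose in ZR-75-30, 5.72 and 12.9 in HCC1500 (without high glucose replicate 3), and 31.5 and 35.8 in MDA-MB-175. HCC1500 high glucose replicate 3 stood apart from its group, so HCC1500 is given without it first, with 3 high-glucose samples, and its value follows.

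In HCC1500, high glucose raised most clustered histone genes. Of 47 tested genes 34 rose and 0 fell (limma on log2(value + 1), Benjamini-Hochberg adjusted p under 0.05 over all genes), or 72.3%, against a background in which 20.9% of 16235 tested genes rose and 37.7% fell. At an unadjusted p under 0.05 the counts were also 34 and 0, and edgeR on the recovered reads called 35 higher and 0 lower. The median difference of the members was 0.85 on the log2 scale, against -0.12 over all tested genes, with single members between -0.26 and 1.69. Under median-of-ratios scaling the median of all genes moved to -0.01 and that of the members to 0.96, with 35 higher and 0 lower. All 47 reached a mean of at least 0.5 in both groups. The calls fell on every class, with 5 of 5 H1, 8 of 10 H2A, 10 of 17 H2B, 5 of 6 H3 and 6 of 9 H4 genes tested. In a bulk sample, more cells of a kind or phase cannot be told apart from more RNA per cell.

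**Figure D1:**
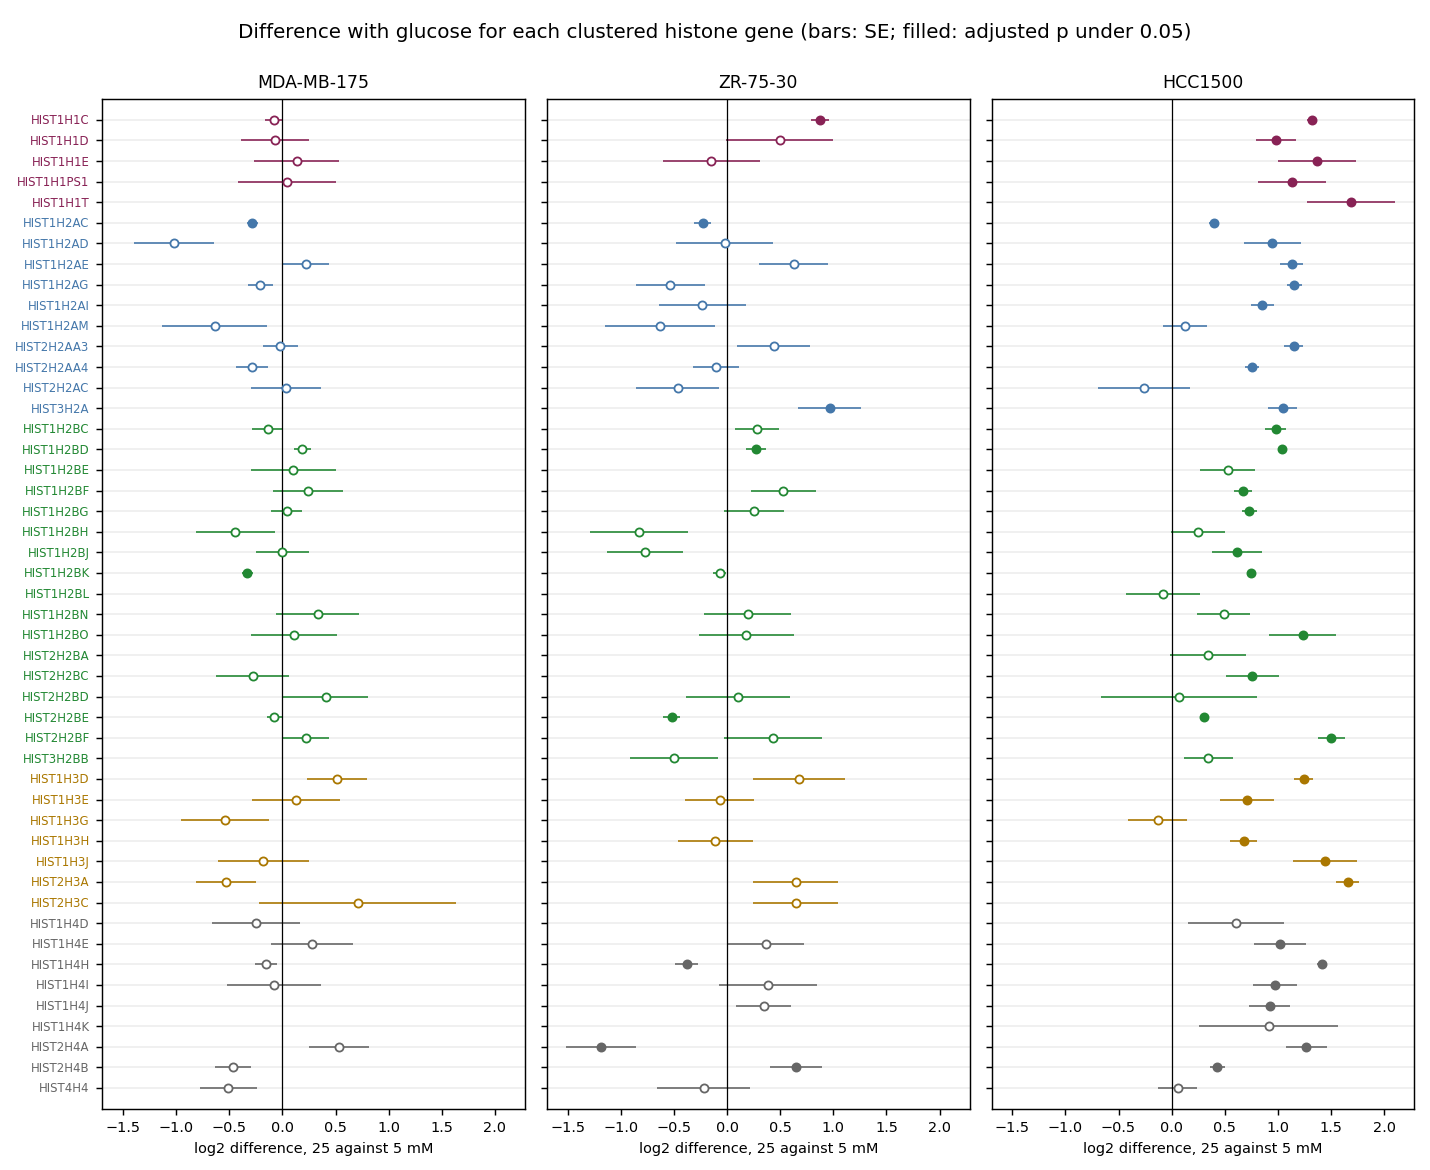
Difference between 25 and 5 mM glucose for each clustered histone gene in the 3 lines, as log2 differences of log2(value + 1) with their SE; colours mark the class, filled points an adjusted p under 0.05, and genes that failed the filter on low values have no point. In HCC1500, drawn without high glucose replicate 3, 34 of 47 points are filled and to the right of 0, against 4 of 38 in ZR-75-30 and 0 of 39 in MDA-MB-175.

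HIST1H1C encodes the linker histone now called H1-2. In HCC1500 it had 561, 633, 553 and 603 normalized counts in low glucose and 1542, 1446 and 1417 in high glucose. The 2 groups were far apart, and the rise was 1.32 ± 0.04 (SE) on the log2 scale (adjusted p = 4.12e-14, limma). HIST1H1D, another linker histone, had 14.4, 25.7, 24.9 and 22.4 in low and 44.2, 35.3 and 51.2 in high glucose, a rise of 0.98 ± 0.19 (adjusted p = 0.000243, limma). The largest estimate in HCC1500 was that of HIST1H1T, the testis-type H1, at 1.69 ± 0.42 (adjusted p = 0.00197, limma), but on low values, 0.38 to 3.49 in low and 4.48 to 7.39 in high glucose.

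Among the core histones of the octamer, the H4 gene HIST1H4H had the smallest adjusted p. Its values were 262, 280.5, 298 and 273 in low glucose and 719.7, 733 and 769 in high glucose, a log2 rise of 1.41 ± 0.05 (adjusted p = 2.91e-14, limma). HIST1H2BD, an H2B gene with a transcript without the stem-loop, had 406, 431, 429.9 and 412 against 851, 894 and 850.2, a rise of 1.04 ± 0.04 (adjusted p = 1.09e-13, limma). Neither gene had overlapping groups. HIST1H2BK, another H2B gene, had 686, 770.2, 690.2 and 738 in low and 1191, 1240.3 and 1203 in high glucose, a rise of 0.75 ± 0.04. HIST2H2BE, with the long annotated form only, had 906, 939, 926 and 903 against 1121, 1147 and 1125, a rise of 0.30 ± 0.03, and HIST1H2AC had 605, 539, 558 and 598 against 733, 770.1 and 763, a rise of 0.39 ± 0.04. Both were called with small changes, so the most abundant members did not move by a common factor.

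Several members with lower values had larger rises. HIST2H2BF, an H2B gene, had 24.3, 30.8, 29.5 and 28.9 in low and 79.6, 93.0 and 73.9 in high glucose, a rise of 1.5 ± 0.13. HIST1H3D, an H3 gene, had 46.7, 49.2, 47.2 and 51.2 against 121, 111 and 116, a rise of 1.2 ± 0.09. The H2A gene HIST1H2AG had 103, 100.4, 99.3 and 115 against 228, 237 and 236, a rise of 1.16 ± 0.07. These groups too were separate. HIST1H2BC rose by 0.98 ± 0.10, HIST1H2BG by 0.73 ± 0.07, HIST1H2AI by 0.85 ± 0.11, HIST1H3H by 0.68 ± 0.13, HIST3H2A by 1.04 ± 0.13 and HIST1H4J by 0.92 ± 0.19. HIST4H4, the H4 gene on chromosome 12, had 19.0, 19.4, 18.8 and 21.5 in low and 26.5, 17.4 and 18.5 in high glucose, a difference of 0.06 ± 0.18 with overlapping groups (adjusted p = 0.812, limma). HIST2H2AC, at 0.635 to 2.15 in low and 0.497 to 1.85 in high glucose, differed by -0.26 ± 0.43 and was not called.

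**Figure D2:**
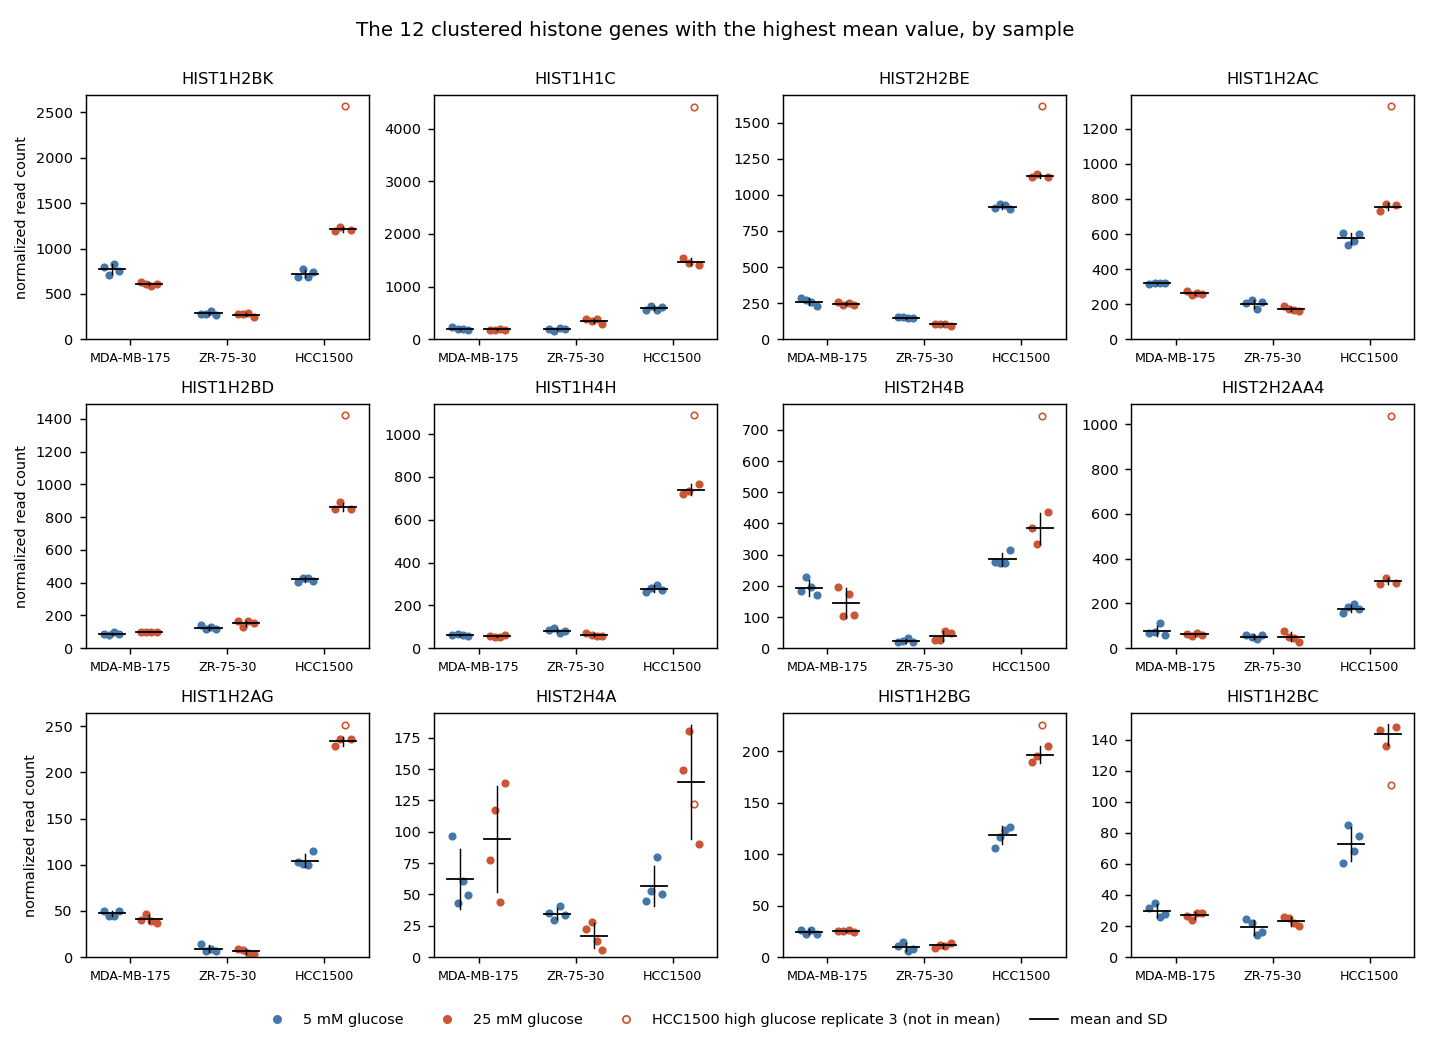
Normalized read counts of the 12 clustered histone genes with the highest mean value in all 24 samples; points are samples, bars the mean and SD, and the open point is HCC1500 high glucose replicate 3, which is in no mean. In HCC1500 each gene's 3 retained high-glucose samples lie above the 4 low-glucose samples, while ZR-75-30 and MDA-MB-175 lie lower for most genes and move less.

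HCC1500 high glucose replicate 3 was read beside these values. Relative to the mean of the other 3 high-glucose samples, the 37 members with a mean of at least 10 stood at 0.180 to 3.48 times, with a median of 1.25, against a median of 1.20 over all genes with such a mean. It was above 1.5 times in 12 members and below 0.67 times in 6. HIST1H1C had 4420.4 and HIST1H2BK 2573 normalized counts there, while HIST1H2AI had 42.3 and HIST2H2BF 33.4. With this library in the fit, 24 members rose and 0 fell, and of the members named here HIST1H2AC (adjusted p = 0.0512, limma), HIST1H2AI, HIST2H2AA4, HIST2H3A and HIST2H4B were no longer called. The share over all genes in that fit is not given here, so the loss of calls cannot be set beside a background.

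Several members are near-identical copies, between which the counting could split reads. HIST2H3A and HIST2H3C, both H3 genes, had the same value in all 8 ZR-75-30 samples. In HCC1500 HIST2H3C was listed at 0 in the 7 samples of the fit and at 28.2 in high glucose replicate 3, the same value as HIST2H3A there. The call of HIST2H3A alone is therefore uncertain, and the sum of both is the safer value. Summed, they had 41.8, 56.5, 54.1 and 44.8 in low and 146, 157 and 167 in high glucose in HCC1500, a rise of 1.66 ± 0.11. HIST2H2AA3 and HIST2H2AA4, both H2A genes, summed to 217, 241, 255 and 238 against 435, 433 and 435, a rise of 0.87 ± 0.05. HIST2H4A and HIST2H4B, both H4 genes, summed to 322, 327, 352 and 364 against 533, 515 and 526, a rise of 0.62 ± 0.05. With each pair summed before the fit, 32 of 45 entries rose in HCC1500 and 0 fell.

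The response of ZR-75-30 was mixed. Of 38 tested members 4 rose and 4 fell, and 23.4% of 15834 genes rose and 22.7% fell, so both shares (10.5%) lay below the background. The median difference was 0.14 against 0.01 over all genes, and single members lay between -1.18 and 0.97. HIST1H1C had 198, 164, 208 and 192 normalized counts in low and 379.6, 346, 377 and 296 in high glucose, a rise of 0.87 ± 0.08 (adjusted p = 7.4e-08, limma) with separate groups. HIST3H2A, an H2A gene of the HIST3 cluster, had 6.65, 7.96, 6.84 and 4.58 against 22.4, 13.5, 14 and 7.54, a rise of 0.97 ± 0.30 with groups that overlapped, and the call was lost without high glucose replicate 1 (adjusted p = 0.0587, limma). HIST1H2BD rose by 0.27 ± 0.09 from 142, 115, 129.9 and 118 to 164, 129.6, 163 and 154, also with overlap, and the call was lost without low glucose replicate 2, high glucose replicate 1 or high glucose replicate 3, and with the trend against exon length removed. Without low glucose replicate 2 or high glucose replicate 3, 5 members were called in all.

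HIST2H2BE fell in ZR-75-30 from 156, 155, 144 and 144 to 107, 108, 108 and 93.9, by 0.52 ± 0.08 on the log2 scale (adjusted p = 2.07e-05, limma). HIST1H4H fell from 84.2, 92.7, 72.9 and 78.6 to 71.3, 63.5, 59.1 and 57.6, by 0.38 ± 0.11 (adjusted p = 0.00831, limma). Both genes had separate groups in the direction opposite to that of HCC1500. HIST1H2AC fell by 0.23 ± 0.08 with overlapping groups, and the call was lost without low glucose replicate 1, 2 or 4 or high glucose replicate 2, 3 or 4 (adjusted p up to 0.0998, limma). HIST2H4A was called lower (-1.18 ± 0.33) and its copy HIST2H4B higher (0.65 ± 0.24), but their sum was 53.7, 52.3, 71.8 and 55.0 in low and 47.9, 53.3, 67.6 and 55.5 in high glucose. The sum differed by -0.05 ± 0.14 (adjusted p = 0.787, limma), and with the copies summed 3 entries of ZR-75-30 rose and 3 fell.

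In MDA-MB-175 few clustered histone genes changed. Of 39 tested members 0 rose and 2 fell (5.13%), against a background of 11.9% of 17029 genes higher and 13.7% lower, and the median difference was -0.07 against -0.02 over all genes. At an unadjusted p under 0.05, 1 was higher and 4 lower, edgeR and DESeq2 on the recovered reads each called 0 higher and 2 lower, and without low glucose replicate 4 or high glucose replicate 3 the count rose to 4. HIST1H2BK fell from 799.8, 704, 829 and 749.8 to 635, 614, 592 and 609 normalized counts, by 0.33 ± 0.05 (adjusted p = 0.000195, limma). HIST1H2AC fell from 312, 320.3, 321 and 320.5 to 276, 255, 261 and 256, by 0.28 ± 0.05 (adjusted p = 0.000681, limma). Both had separate groups. HIST1H1C, which rose in the other lines, had 232, 190.3, 191 and 171 in low and 177, 182, 201 and 179 in high glucose, a difference of -0.08 ± 0.08 with overlap, and HIST1H2BD had a difference of 0.19 ± 0.08 that did not pass (adjusted p = 0.108, limma).

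No member was called in the same direction in all 3 lines, but only 2 were called in MDA-MB-175, which leaves little room for such a call. Called in more than 1 line were 9 members, among them the copies HIST2H4A and HIST2H4B, whose sum was not called in ZR-75-30. No share over all genes is given here for these counts. The difference between the lines was tested as the interaction of line and glucose over 23 samples. It was called for 19 of 48 members, or 39.6%, against 48.6% of 18127 genes tested. Which of these shares was higher depended on the processing. On CPM scaling 34 of 45 members were called (75.6%, and 56.4% of all genes), and with a pseudocount of 5 it was 33 of 48 (68.8%, and 52.1% of all genes). The members' share also lay above that of all genes under median-of-ratios scaling (52.1% and 48.4%), with the trend against exon length removed (54.5% and 49.8%) and with HCC1500 high glucose replicate 3 included (41.7% and 29.3%). It lay below under edgeR (37.5% and 47.0%), DESeq2 (41.7% and 45.7%), a replicate block (37.5% and 46.0%) and a pseudocount of 0.5 (35.4% and 47.0%). The same held without the filter on low values (39.6% and 47.3%), with a filter at 5 (52.5% and 54.7%) and with copies summed (40% and 48.6%). The adjusted p was 1.13e-11 for HIST1H4H, 3.89e-10 for HIST1H2BK, 9.83e-09 for HIST1H1C, 1.08e-07 for HIST2H2BE, 4.05e-07 for HIST1H2BD and 2.72e-06 for HIST1H2AC (limma F test). Of these, HIST1H2AC rose in HCC1500 and fell in the other two lines, HIST1H2BK fell in MDA-MB-175 and rose in HCC1500, and HIST1H4H and HIST2H2BE fell in ZR-75-30 and rose in HCC1500. HIST1H1C and HIST1H2BD rose in ZR-75-30 and in HCC1500. In ZR-75-30 the calls of HIST1H2AC and HIST1H2BD were lost in 6 and 4 of 19 alternatives. The HCC1500 call of HIST1H2AC was lost with high glucose replicate 3 included.

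Summed over all 48 genes, the values were 4803, 5092, 4931 and 5062 in HCC1500 in low glucose and 8902, 8913 and 8911 in high glucose, a ratio of means of 1.79 (replicate 3 had 16530.0). The sum in MDA-MB-175 was 2393, 2235, 2381 and 2124 in low and 2069, 1958, 2000.0 and 1982 in high glucose, a ratio of 0.877 with groups that did not overlap. In ZR-75-30 the sum was 1317, 1261, 1262 and 1228 against 1478, 1333, 1404 and 1229, a ratio of 1.07 with overlap. The sum thus moved up, down and within its spread in the 3 lines. By class, the HCC1500 ratio was 2.49 for H1, 2.34 for H3, 2.02 for H4, 1.62 for H2A and 1.59 for H2B. In ZR-75-30 the H1 sum, nearly all HIST1H1C, had a ratio of 1.83 and the H4 sum one of 0.884, both without overlap. These sums carry no test, since the members were chosen with results known.

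**Figure D3:**
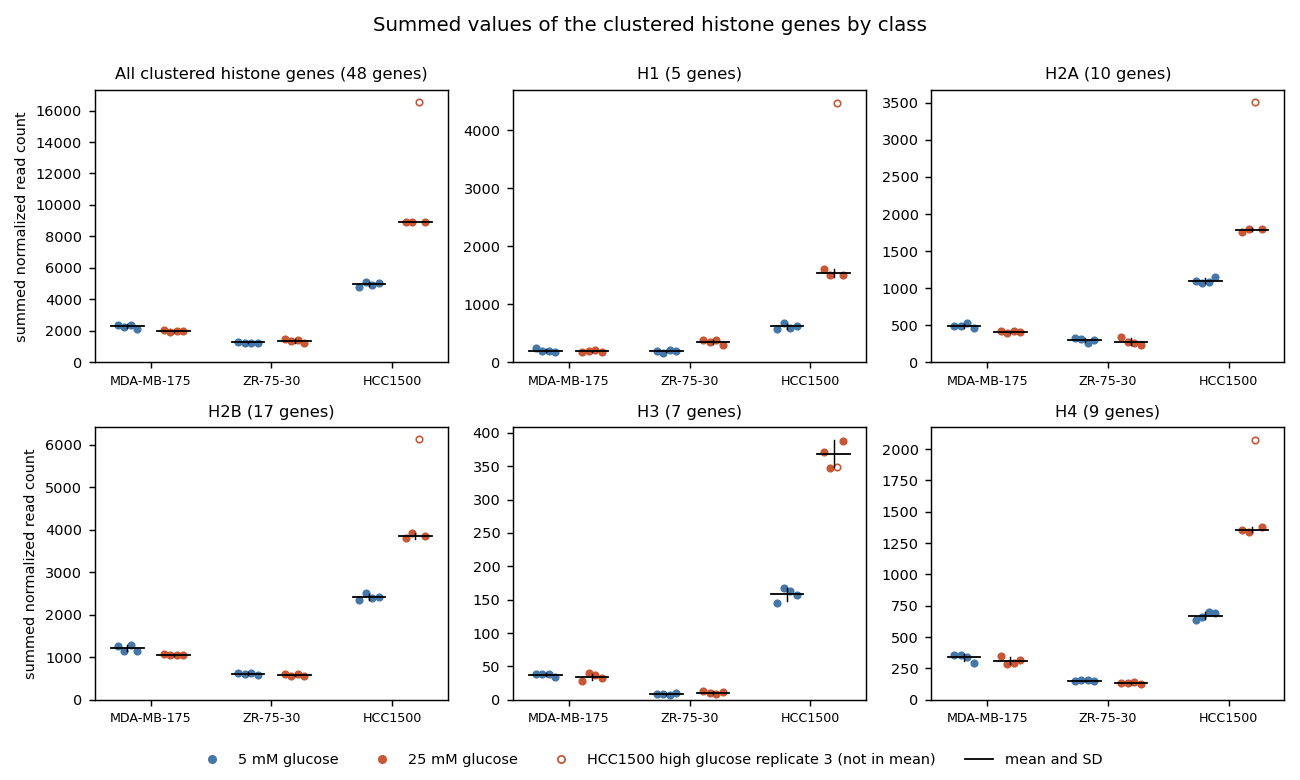
Summed normalized read counts of the clustered histone genes, all together and by class, in the 24 samples; points are samples, bars the mean and SD, and the open point is HCC1500 high glucose replicate 3, which is in no mean. In HCC1500 all classes have separate low and high groups, and the total rises from 4803 to 5092 up to 8902 to 8913.

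The lines differed widely in the level of these genes in low glucose. HCC1500 had the most, with a summed value of 4972 ± 133 (SD, n = 4), MDA-MB-175 had 2283 ± 128 and ZR-75-30 had 1267 ± 37.2, and the groups did not overlap. As a share of all values the sum made up 0.0877%, 0.0370% and 0.0174%. In each line 5 genes carried most of it, 64.8% in HCC1500, 76.2% in MDA-MB-175 and 75.4% in ZR-75-30, and HIST1H2BK, HIST1H1C, HIST2H2BE and HIST1H2AC were among them in all 3 lines. Per kilobase of annotated exon, HIST1H2BK had 1457 in HCC1500, 1557 in MDA-MB-175 and 578 in ZR-75-30, HIST1H1C had 804, 268 and 260.5, and HIST2H2BE had 413, 117 and 67.4. On that scale HIST1H2BK stood above both other genes in every line, with HIST2H2BE divided by 2224 annotated bases and HIST1H2BK by 495. The order of HIST1H2BK and HIST2H2BE can depend on these annotated ends, since the values cannot tell a long message from a short one.

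HCC1500 against ZR-75-30 in low glucose gave 44 of 47 tested members higher and 1 lower, with a background of 48% of 17739 genes higher and 32.4% lower. The median difference was 2.12, against 0.25 over all genes, and 2.02 with the 4 members at 0 in a whole group set to a bound from a floor of 3 reads per library. The largest was HIST2H3A at 4.87 ± 0.30, or 4.44 ± 0.33 as the sum of both copies. HIST1H3D was higher by 4.65 ± 0.33, with 46.7, 49.2, 47.2 and 51.2 against 0, 1.14, 1.14 and 2.29, and HIST1H1D by 4.05 ± 0.28, with 14.4 to 25.7 against 0 to 1.11. These 3 genes were close to the level of a few reads in ZR-75-30. The lower member was HIST2H2AC (-0.79 ± 0.32, adjusted p = 0.0353, limma), at 0.635 to 2.15 against 2.29 to 3.88, and 9 of 23 alternatives lost that call. HIST1H4J was called with 0.46 ± 0.20, a call that 17 of 24 alternatives lost.

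HCC1500 against MDA-MB-175 gave 40 of 47 members higher and 2 lower, against 42.2% of genes higher and 38.4% lower, with a median of 1.6 against 0.06, or 1.31 with 8 such members at their bound. HIST1H2BD was higher by 2.23 ± 0.07, HIST1H4H by 2.16 ± 0.08, HIST2H2BE by 1.82 ± 0.06 and HIST1H1C by 1.59 ± 0.09. HIST1H2BK did not follow, with 686 to 770.2 in HCC1500 and 704 to 829 in MDA-MB-175, a difference of -0.09 ± 0.06 (adjusted p = 0.146, limma). The 2 lower members were HIST2H2AC (-1.12 ± 0.32) and HIST2H3C, which was listed at 0 in the 4 HCC1500 samples and at 0, 15.4, 12.5 and 0 in those of MDA-MB-175. That call was lost in 6 of 21 alternatives, and the sum of HIST2H3C with its copy HIST2H3A was higher by 0.84 ± 0.33 in HCC1500. ZR-75-30 against MDA-MB-175 gave 9 higher and 23 lower of 47, against 28.8% and 44.3%, with a median of -0.63 against -0.18, or -0.53 with 9 such members at their bound. HIST2H4A and HIST2H4B as a sum were lower by 2.13 ± 0.10 there, HIST4H4 by 2.57 ± 0.24 and HIST1H2BK by 1.43 ± 0.06, while HIST1H2BD was higher by 0.50 ± 0.07. HIST1H1C was level in these 2 lines, at 164 to 208 and 171 to 232 (-0.04 ± 0.09). The 3 comparisons share samples, and 9 to 12 of the 47 members reached a mean of 0.5 in only 1 of the lines compared, so the share of calls is not a count over genes expressed in both.

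**Figure D4:**
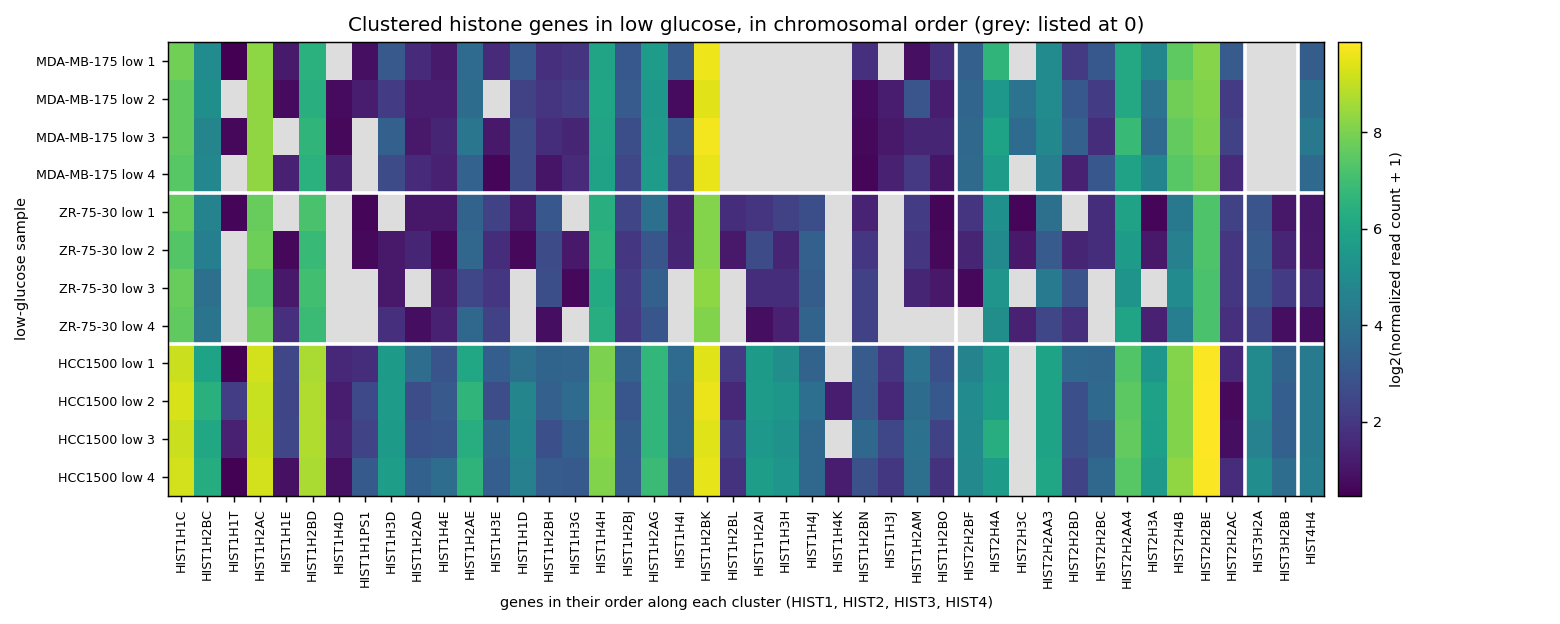
Low-glucose values of the 44 matched genes as log2(normalized read count + 1), in their order along each cluster, for the 12 low-glucose samples; white lines part the clusters and the lines, and grey marks a gene listed at 0. HCC1500 rows are brightest over most of the order, and the MDA-MB-175 rows are grey from HIST1H2BL to HIST1H4K and at HIST3H2A and HIST3H2BB.

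MDA-MB-175 listed 8 members at 0 in all 8 samples, and these genes were singled out after their values were seen. They were 16.7% of the 48 members, against 2.4% of the 18629 genes with a value above 0 in any sample. In the order of the annotation (build GRCh37), 5 of them are consecutive members on chromosome 6 between 27775257 and 27799338, HIST1H2BL, HIST1H2AI, HIST1H3H, HIST1H4J and HIST1H4K. HIST3H2A and HIST3H2BB are neighbours on chromosome 1 between 228622478 and 228650805. The last is HIST2H2BA, which was also at 0 in every ZR-75-30 sample. The nearest members on either side of the chromosome 6 block were not at 0 in the low-glucose samples. HIST1H2BK, at 704 to 829, ends at 27114634, well before the block. HIST1H2BN, at 0.509 to 2.41, rested on 6, 1, 1 and 1 reads, so it is hardly above 0 and does not mark a sharp end of the block. Near the HIST3 pair, TRIM11 had 423 to 474 and RNF187 had 1020 to 1292 in the same samples, but TRIM17 had only 4.02 to 8.03. Against a floor of 3 reads per library, HIST1H2AI was at least 29.9-fold higher in HCC1500, HIST1H3H at least 24-fold, HIST3H2A at least 18.1-fold and HIST1H4J at least 7.23-fold. In ZR-75-30 HIST1H4J was at least 5.13-fold and HIST3H2A at least 4.04-fold higher. Of genes with a mean of at least 10 in HCC1500 in low glucose, 5 of 29 members were at 0 in every MDA-MB-175 sample, and 76 of 12814 over the whole table. In ZR-75-30, 0 of these 29 members and 260 of the 12814 genes were at 0. A change with glucose could not be tested for these genes in MDA-MB-175, and what sets these zeros was not tested.

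Split by their annotated ends, the genes did not separate in HCC1500 into those that changed and those that did not. In HCC1500, 16 of the 24 tested genes whose every annotated transcript ends at the stem-loop rose, with a median difference of 0.94, and 10 of the 12 with a transcript ending 100 or more bases further rose, with a median of 0.69. Of the 6 with a transcript without the stem-loop and no long form 5 rose, with a median of 1.01. Counting also HIST1H2AC, HIST3H2BB and HIST4H4, which have both a long form and a transcript without the stem-loop, 6 of 9 rose, with a median of 0.61. In low-glucose HCC1500 samples the median level was 10.1 in the first set, 47.7 in the second and 18.4 in the third, and the order was the same in the other lines. In ZR-75-30, 1 of 20 tested genes of the first set rose and 0 fell, while 2 of 11 in the second rose and 4 fell. The calls of the second set include the copies HIST2H4A and HIST2H4B. The median low-glucose level in ZR-75-30 was 9.04 in the second set against 1.09 in the first, and the part of level in these calls was not tested. In HCC1500 the 6 genes with an H1 box had a median difference of 1.34 and the 32 without 0.80, but 4 of the 6 are H1 genes, so class and motif cannot be told apart.

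Genes that act in S phase or around histone supply were counted from lists, against the shares of all genes given for each line. In the list of S phase genes, fixed with earlier results known, 24 of 24 fell in HCC1500 (median -0.94), 23 of 24 fell in ZR-75-30 (-1.14) and 21 of 24 in MDA-MB-175 (-0.32). PCNA, the sliding clamp of DNA replication, fell from 731 ± 22.4 (SD, n = 4) to 509 ± 13.0 (n = 3) in HCC1500, by 0.52 ± 0.04 (SE) on the log2 scale, by 1.08 ± 0.04 in ZR-75-30 and by 0.22 ± 0.04 in MDA-MB-175. In HCC1500 the clustered histone genes thus had higher and the S phase genes lower values in the same samples. Of 19 histone chaperones, which carry histones to DNA, 2 rose and 15 fell in HCC1500, 2 rose and 16 fell in ZR-75-30, and 9 fell in MDA-MB-175.

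Of 19 genes for histone transcription and 3′ processing, 5 rose and 6 fell in HCC1500, shares near those of all genes (20.9% and 37.7%), 1 rose and 12 fell in ZR-75-30, and 6 fell in MDA-MB-175. SLBP, which binds the stem-loop, had 237 ± 22.4 in low and 234 ± 17.4 in high glucose in HCC1500 (-0.01 ± 0.07, adjusted p = 0.869, limma), and it fell by 0.41 ± 0.06 in ZR-75-30 and by 0.22 ± 0.06 in MDA-MB-175. NPAT, which organizes the histone locus body, rose by 0.21 ± 0.07 in HCC1500 (adjusted p = 0.016, limma) and was not called in the other lines, where its estimates were -0.19 ± 0.09 and 0.08 ± 0.09. CASP8AP2, another component of that body, fell by 0.48 ± 0.07 in ZR-75-30 and was not called in HCC1500 (-0.07 ± 0.06) or MDA-MB-175 (-0.11 ± 0.07).

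The histone variants listed as replication-independent, which lie outside the clusters and are mostly made through the cell cycle, split by gene. In HCC1500 5 of 10 tested rose and 4 fell, in ZR-75-30 3 of 11 rose and 6 fell, and in MDA-MB-175 1 of 11 rose and 5 fell. H1F0, the linker histone H1.0, rose in every line, from 2734 ± 62.1 to 5408 ± 229 in HCC1500 (0.98 ± 0.03), from 2621 ± 44.5 to 5299 ± 169 in ZR-75-30 (1.02 ± 0.03) and from 4185 ± 262 to 5152 ± 127 in MDA-MB-175 (0.30 ± 0.05). H2AFX, the H2A form phosphorylated at DNA breaks, fell in every line, by 0.94 ± 0.07, 1.34 ± 0.10 and 0.50 ± 0.09 in the same order. H3F3B, which encodes H3.3, rose by 0.48 ± 0.02 in HCC1500 and fell by 0.13 ± 0.04 in ZR-75-30. H2AFZ rose by 0.17 ± 0.04 in HCC1500 and fell by 0.51 ± 0.04 in ZR-75-30 and by 0.14 ± 0.05 in MDA-MB-175. H2AFJ fell by 0.26 ± 0.03 in HCC1500 and rose by 0.21 ± 0.08 in ZR-75-30, and H1FX rose by 0.80 ± 0.07 in ZR-75-30 and by 0.14 ± 0.04 in HCC1500.

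**Figure D5:**
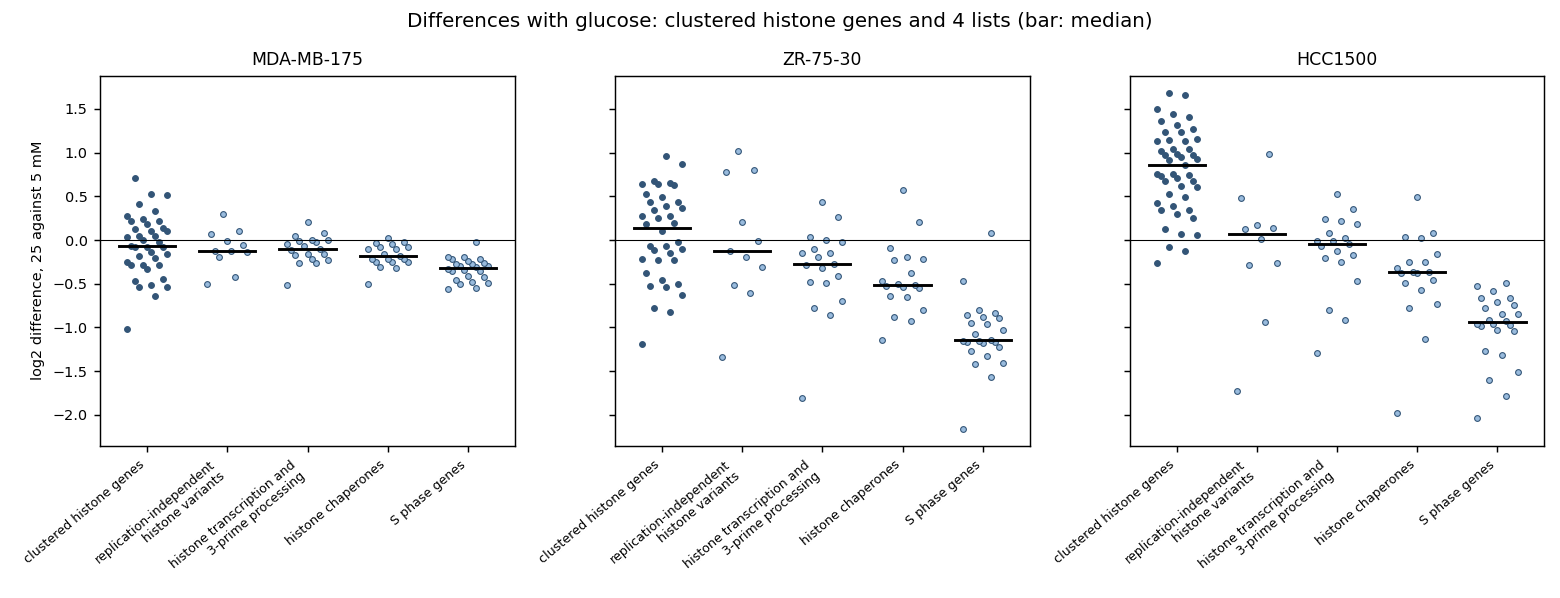
Log2 differences between 25 and 5 mM glucose in the 3 lines for the clustered histone genes (dark points) and the genes of 4 lists (light points), with the median of each as a bar. In HCC1500 the median is 0.85 for the clustered histone genes and -0.94 for the S phase genes, and in every line the S phase genes lie lowest.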

How the data were processed

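RNA of 24 cell-line samples was sequenced on an Illumina HiSeq, and the authors deposited normalized read counts, a signal whose values turned back into whole reads after rescaling each sample by its own constant (100% of values, within a tolerance of 0.1 read). The submitters' processing notes name hg38 and edgeR, the study's methods give hg19 for other samples, and the counting, strand and selection of these libraries are not given in the sources used here. Groups came from the sample titles.

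Members are the rows with symbols beginning HIST1H to HIST4H and a value above 0. Members and lists were chosen with earlier results of these data known. Genes that reached 0.5 in 4 or more fitted samples were tested on log2(value + 1) with limma 3.58.1 (R 4.3.3; trend) and Benjamini-Hochberg adjustment over all genes (adjusted p under 0.05, two-sided). A fold on this scale understates the change of low genes. HCC1500 high glucose replicate 3 was left out of the main fits. Lines were compared in the 12 low-glucose samples with 1 spread. Named members are the 12 with the highest mean, the 3 largest called differences per direction and comparison, and the 6 smallest interaction p. Lists have counts over all genes tested only. Gene positions are from GENCODE 44 lifted to GRCh37, promoters from RefSeq GRCh38.p14 (39 members). Alternatives were other pseudocounts, filters and scalings, edgeR 4.0.16, DESeq2 1.42.0, left-out samples and, chosen after seeing the data, summed copies. In simulated data of the HCC1500 design over 16618 genes, 98% of genes changed by 1 on the log2 scale were recovered, and 75% of those changed by 0.5, and 7.98% of the calls were of unchanged genes. The changed genes were drawn only from those above a set read level, with 1 fixed dispersion. The recovery therefore does not cover members at a few reads. Intervals for counting error were not used, and the floor of 3 reads covers counting error only.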

Additional observations from a re-analysis of the deposited data

Results flagged for a closer look

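The change with glucose differed between the lines for 19 of 48 members by the interaction test, or 39.6%, against 48.6% of all genes tested. The smallest adjusted p were 1.13e-11 for HIST1H4H, 3.89e-10 for HIST1H2BK, 9.83e-09 for HIST1H1C, 1.08e-07 for HIST2H2BE, 4.05e-07 for HIST1H2BD and 2.72e-06 for HIST1H2AC (limma F test).

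Of 180 groups of 4 samples examined, 24 held a sample far from the other 3, where chance gives about 1 in 20 for independent groups; the sums hold the same genes, so these groups are not independent. HCC1500 high glucose replicate 3 was that sample in 15 of them. Its sum was 16530.0 over all members (other samples up to 8913), 4476 over H1, 3507 over H2A, 6124 over H2B and 2075 over H4. It had 4420.4 for HIST1H1C, 1332 for HIST1H2AC, 1423 for HIST1H2BD, 2573 for HIST1H2BK, 1088 for HIST1H4H, 1039.6 for HIST2H2AA4, 1613 for HIST2H2BE, 137 for HIST3H2A and 28.2 for both HIST2H3A and HIST2H3C. Whether the library or the culture differs was not tested.

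The other 9 lay in several groups. MDA-MB-175 high glucose replicate 1 had 1081 for the H2B sum and 0.416 for HIST1H1T, its low glucose replicate 1 had 312 for HIST1H2AC, and its high glucose replicate 3 had 26.5 for HIST1H2BG. ZR-75-30 high glucose replicate 4 had 93.9 for HIST2H2BE and 4.11 for HIST1H1D (others up to 0.675), its high glucose replicate 1 had 3.65 for HIST1H2AI (others 1.35 to 1.70), and its low glucose replicate 1 had 0.554 for HIST1H1T. Each of the HIST1H1T values was 1 read beside samples at 0, which is always flagged, so the rate stated above does not cover them. HCC1500 low glucose replicate 4 had 314 for HIST2H4B.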

How the results depend on the processing

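Of 196 alternative values for counts of called members and for sums, 188 stayed within 1.5 times the main count or within the spread of the sum, and none changed direction. The interaction count was 19 as reported, or 39.6% of members against 48.6% of genes. It was 33 with a pseudocount of 5 (68.8% and 52.1%) and 34 under CPM scaling (75.6% and 56.4%), and the cause was not tested. The log2 ratio of the HCC1500 sum, 0.84, moved to 0.97 under median-of-ratios scaling and to 1.12 with high glucose replicate 3. Leaving out single samples gave 2 to 4 called members in MDA-MB-175, 5 to 8 in ZR-75-30, 32 to 34 in HCC1500 and 17 to 24 for the interaction. With a replicate block the counts were 3, 8 and 33 in the 3 lines and 18 for the interaction, and 31, 42 and 45 between lines. The samples share only a number: same-numbered deviations correlated at 0.05, 0.04 and 0.009 on average. Of 2157 values of single members, 76 lost the call and none reversed. The setting with copies summed gave no value for the second copy of each pair, so these counts leave it out. HIST2H4B was called higher in ZR-75-30, where its summed pair differed by -0.05 ± 0.14. HIST2H3C was called lower in HCC1500 against MDA-MB-175, where its summed pair was higher by 0.84 ± 0.33. Depth limits the precision for members at a few reads.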
